A study of Homo sapiens with 9 samples.

Results

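The 33 genes described here encode the enzymes of cholesterol synthesis, the proteins that sense sterols and control that synthesis, the carriers that move cholesterol within and out of the cell, and the enzymes that make fatty acids from acetyl-CoA. They were listed by gene symbol, with older synonyms accepted, and each gene was read by its probe set of highest mean over all arrays. Of the 33, 30 had a probe set annotated to them alone, out of 11963 genes so annotated in the series. A gene was tested where it reached a log2 value of 4 on at least 3 of the 9 arrays, which 23 of the 30 did, out of 4368 genes tested in all. The other 7 lay near the background and are counted apart. FDFT1 and NR1H2 were not analysed here, and CYP51A1 was not read because its probe sets were annotated to several genes.

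HK-2 is an immortalised line of human proximal tubule epithelium. The 3 groups were untreated cells at 0 h and cells after 24 h and 48 h of TGFβ1, a signal under which epithelial cells can take on mesenchymal traits, and the series asks which transcripts change as they do. There were 3 runs on separate days at successive passages, and within a run the plates of each time were pooled, so each of the 9 arrays holds 1 pool from 1 run and each group has 3. Untreated cells were read at 0 h alone, so TGFβ1 and time in culture cannot be told apart in either comparison. The labels call the 0 h cells untreated, while the series' design text names a vehicle group, and neither states a dose for TGFβ1. All groups grew in the same hormone-supplemented medium, in whose listed ingredients no serum is named. Replicates are runs of 1 cell line. With the run as a block, p-values measure how evenly a change repeated from run to run. They do not measure the spread between people or lines.

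Cholesterol and fatty acids are both built from cytosolic acetyl-CoA, which ATP citrate lyase (ACLY) makes from citrate. When membrane sterol is low, the chaperone SCAP carries the transcription factors SREBF1 and SREBF2 (the SREBPs) to the Golgi for cleavage, and the INSIG proteins hold SCAP back when sterol is high. When sterols accumulate, the nuclear receptors NR1H3 and NR1H2 (the LXRs) switch on ABCA1 and ABCG1, which export cholesterol. Proximal tubule cells in vivo take most of their energy from oxidation of fatty acids, and they also synthesise sterols and lipids.

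No promoter window was available for FDFT1, SQLE, ACAT2, ABCG1 and FASN. Promoter windows were available for the other 28 of the 33 genes, 250 bases before to 50 bases after an annotated start, from RefSeq on GRCh38.p14. The first listed window is printed for 5 of them: the 3 genes that passed a test below (ACLY, ABCA1, NPC1), HMGCS1 as a sterol synthesis enzyme that did not, and SREBF2, the only 1 of the 28 with the sterol element searched for. Capitals mark matches on either strand to TCACNCCAC (a form of the sterol regulatory element), CCAAT (the CCAAT box), GGGCGG (the GC box) and CACGTG (the E-box, a palindrome). Matches that overlap run together, as in the joined pair of GC boxes in SREBF2. ACLY lies at chr17:41918973-41919272, ABCA1 at chr9:104928106-104928405, NPC1 at chr18:23586457-23586756 and HMGCS1 at chr5:43313363-43313662, all on the minus strand, and SREBF2 at chr22:41832855-41833154 on the plus strand.
ACLY: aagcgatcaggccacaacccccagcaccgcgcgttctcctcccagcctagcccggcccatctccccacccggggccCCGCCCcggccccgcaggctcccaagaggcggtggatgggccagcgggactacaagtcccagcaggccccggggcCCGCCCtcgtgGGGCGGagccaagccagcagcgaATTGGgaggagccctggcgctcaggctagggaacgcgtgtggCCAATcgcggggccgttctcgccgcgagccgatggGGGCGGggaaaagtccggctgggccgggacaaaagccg
ABCA1: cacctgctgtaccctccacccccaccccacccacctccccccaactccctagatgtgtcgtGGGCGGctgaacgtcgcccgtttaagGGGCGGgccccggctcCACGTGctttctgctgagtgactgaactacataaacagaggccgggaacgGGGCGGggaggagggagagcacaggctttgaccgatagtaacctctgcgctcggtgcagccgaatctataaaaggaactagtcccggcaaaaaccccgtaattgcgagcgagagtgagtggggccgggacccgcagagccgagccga
NPC1: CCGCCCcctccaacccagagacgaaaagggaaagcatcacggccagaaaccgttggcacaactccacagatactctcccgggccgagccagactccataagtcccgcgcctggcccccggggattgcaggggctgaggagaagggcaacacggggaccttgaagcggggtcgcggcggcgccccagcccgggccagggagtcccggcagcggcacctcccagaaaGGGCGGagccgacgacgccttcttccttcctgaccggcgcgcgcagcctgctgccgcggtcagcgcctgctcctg
HMGCS1: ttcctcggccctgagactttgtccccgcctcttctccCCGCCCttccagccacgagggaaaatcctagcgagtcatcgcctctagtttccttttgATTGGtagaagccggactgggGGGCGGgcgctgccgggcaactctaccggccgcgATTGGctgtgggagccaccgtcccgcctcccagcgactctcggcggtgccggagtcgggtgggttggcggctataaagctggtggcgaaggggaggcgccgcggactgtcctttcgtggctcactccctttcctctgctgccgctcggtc
SREBF2: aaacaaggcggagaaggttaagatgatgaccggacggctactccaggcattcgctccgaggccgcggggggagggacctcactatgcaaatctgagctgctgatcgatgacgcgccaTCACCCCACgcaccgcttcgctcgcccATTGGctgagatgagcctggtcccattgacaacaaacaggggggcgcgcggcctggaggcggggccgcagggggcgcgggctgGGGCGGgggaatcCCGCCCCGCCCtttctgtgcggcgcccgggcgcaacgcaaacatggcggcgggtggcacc

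The windows of ACLY and HMGCS1 hold CCAAT boxes as well as GC boxes, those of ABCA1 and NPC1 hold GC boxes but no CCAAT box, and the single E-box among the 5 is in ABCA1. The 28 genes had 41 windows, and 24 of the 41 (58.5%) held CCAAT, against 34.6% of all 35116 windows in the table. Among the sterol synthesis enzymes, 15 of 20 windows (75.0%) held CCAAT, and 13 of the 15 genes had it in at least 1 window. GC boxes were in 36 of 41 windows (87.8%), against 45.0% of all windows, and E-boxes in 6 of 41 (14.6%), against 7.26%. TCACNCCAC was in 1 of 41 windows (2.44%), against 1.13%, and the consensus DR4 repeat that LXRs bind was in none of the 41, against 0.0199% of all windows. Only the exact letters given were searched, so other forms of these elements, or sites outside the windows, were not read. Such matches are descriptions of the letters in these windows and say nothing of binding.

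Most of the 23 tested genes did not pass the test at either time, and none of those that did was an enzyme of sterol synthesis itself. ACLY, which makes acetyl-CoA, rose at both times. NPC1, which moves cholesterol out of lysosomes, fell at both times, and ABCA1, the cholesterol exporter, rose at 48 h. At 24 h against untreated, 2 of the 23 genes passed an adjusted p of 0.05 (8.7%), against 11.5% of the 4368 genes tested. By direction, 1 rose and 1 fell, against 5.95% and 5.52% of all genes. At 48 h against untreated, 3 of the 23 passed (13.0%), against 10.0% of all genes, with 2 that rose and 1 that fell against 5.22% and 4.81%. Both shares are near the background. Without the run as a block, 1 of the 23 passed at 24 h against 4.81% of all genes, 2 passed at 48 h against 4.44%, and 0 passed in an F test over the 3 times against 4.12%. Every adjusted p here is from limma with the run as a block and Benjamini-Hochberg adjustment over all 4368 genes, unless stated otherwise.

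The median difference over the 23 genes was 0.20 at 24 h and 0.12 at 48 h on the log2 scale, against 0.02 for all tested genes at both times. These medians moved by more than 1.5 times when arrays were left out. At 24 h the median was 0.09 without the 24 h array of run 3 and 0.13 without the untreated array of run 1 or of run 3 or without all of run 3. At 48 h it was 0.05 without the 48 h array of run 1, 0.21 without that of run 2 and 0.20 without that of run 3. With the 7 genes near background included, the medians over 30 genes were 0.12 and 0.07. At 24 h 15 of the 23 differences were above 0, and at 48 h 20 were, against 52.4% and 54.7% of all genes tested. In all 3 runs, 11 of the 23 were higher at 24 h than in untreated cells and 2 were lower, against 24.9% and 19.8% of all genes. At 48 h the counts were 7 and 1, against 23.2% and 18.2%. The arrays of the 2 groups did not overlap in 3 genes that were higher at 24 h (ABCA1, FASN and ACLY) and 1 that was lower (NPC1), against 8.68% and 7.72% of all genes. At 48 h the genes without overlap were SQLE, ABCA1 and ACLY on the higher side and NPC1 on the lower, 3 and 1 of 23, against 9.75% and 8.31%. The 2 comparisons share the untreated arrays, so they do not count as separate evidence.

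**Figure D1:**
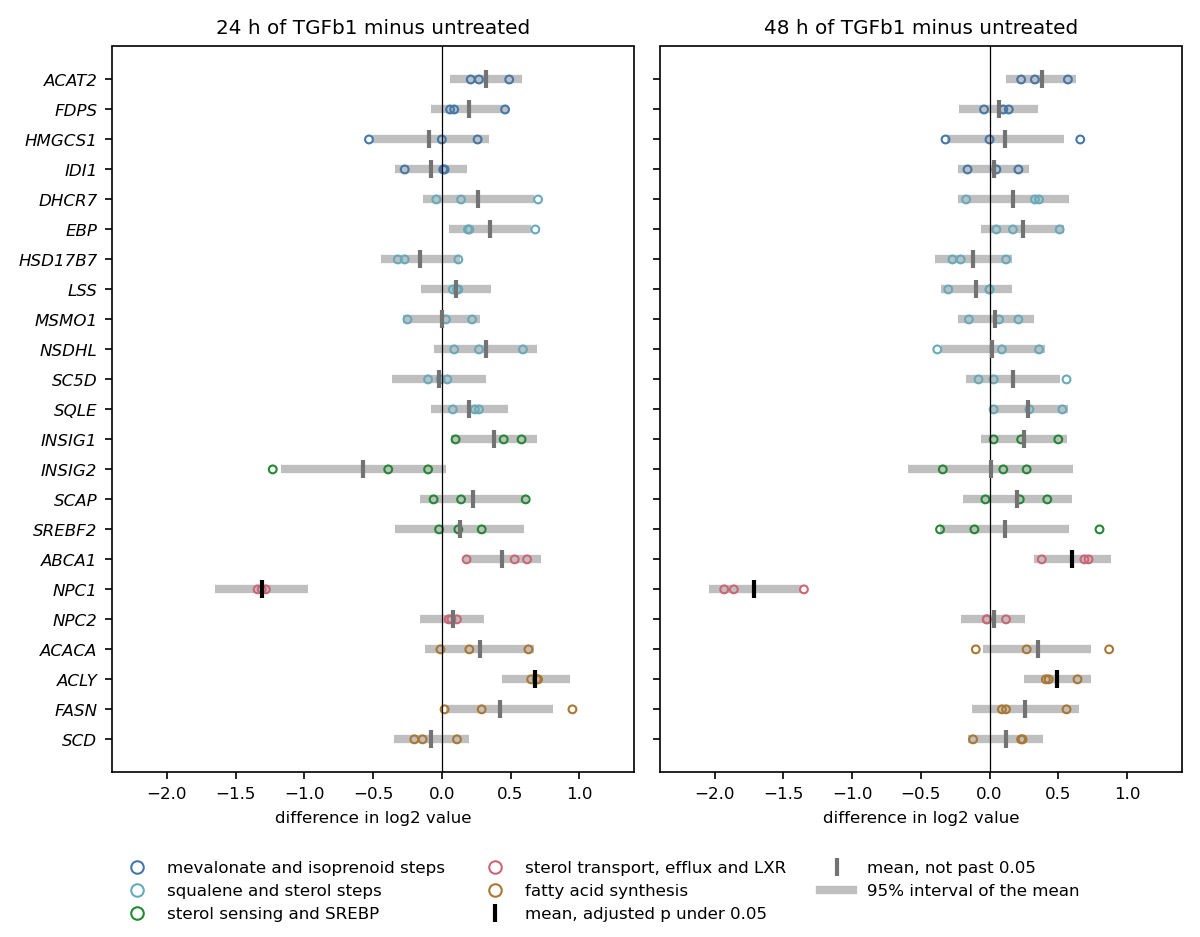
Differences in log2 value from untreated cells for the 23 tested genes, at 24 h (left) and 48 h (right) of TGFβ1. Open circles are the 3 runs, ticks the mean (black where the adjusted p is under 0.05) and grey bars the 95% interval of the mean. The ticks of NPC1 lie at −1.31 and −1.71, while the sterol synthesis enzymes at the top lie between −0.16 and 0.38.

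The first steps join acetyl-CoA units and turn them into isoprenoids. ACAT2, the cytosolic thiolase that starts the pathway, read 8.06, 8.38 and 8.41 in untreated cells, 8.27, 8.87 and 8.67 at 24 h, and 8.39, 8.95 and 8.63 at 48 h in runs 1, 2 and 3. It was higher than untreated in every run at both times, but the groups overlapped. The difference was 0.32 (95% interval 0.06 to 0.58, adjusted p = 0.107) at 24 h and 0.38 (0.12 to 0.63, adjusted p = 0.0802) at 48 h. HMGCS1, which makes HMG-CoA, read 6.83, 6.45 and 7.05 in untreated cells, 6.83, 6.71 and 6.52 at 24 h, and 6.82, 7.11 and 6.74 at 48 h. Its 3 runs moved in different directions and the groups overlapped. The intervals of its difference were −0.51 to 0.34 at 24 h and −0.31 to 0.54 at 48 h. IDI1, the isomerase of the isoprenoid unit, differed by −0.08 and 0.03 at 24 h and 48 h, and FDPS, which builds farnesyl diphosphate, by 0.20 and 0.07. The 3 kinase and decarboxylase genes between HMGCS1 and IDI1 (MVK, PMVK and MVD) were under the filter, with MVK at 3.16 to 4.20, PMVK at 3.12 to 4.04 and MVD at 3.08 to 3.62.

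The later steps close the sterol ring and convert lanosterol to cholesterol. SQLE, the epoxidase that puts oxygen on squalene, read 7.57, 7.71 and 7.95 in untreated cells, 7.81, 7.98 and 8.03 at 24 h, and 8.09, 8.0 and 7.98 at 48 h. All 3 arrays at 48 h lay above the 3 untreated arrays, by a narrow margin, while the 24 h and untreated values overlapped. The 48 h difference was 0.28 (interval 0.00 to 0.57, adjusted p = 0.214). MSMO1, a demethylating oxygenase of sterols, averaged 9.50 ± 0.38 on the untreated arrays, 9.50 ± 0.15 on the 24 h arrays and 9.55 ± 0.20 on the 48 h arrays (SD, n = 3 each). Its runs kept their order at all 3 times, with run 3 the highest and run 2 the lowest. EBP, a sterol isomerase, was higher in all 3 runs at both times, by 0.35 at 24 h (interval 0.05 to 0.65, adjusted p = 0.123) and 0.24 at 48 h. DHCR7, which catalyses the last step of 1 branch, differed by 0.26 and 0.17, and NSDHL, a sterol dehydrogenase of the demethylation steps, by 0.32 and 0.02. LSS, the ring-closing lanosterol synthase, differed by 0.10 at 24 h and −0.10 at 48 h. SC5D, a sterol desaturase, differed by −0.02 and 0.17, and HSD17B7, a sterol ketone reductase, by −0.16 and −0.12. TM7SF2, a sterol reductase, was under the filter at 1.68 to 3.0.

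Taking the steps from acetyl-CoA to cholesterol as 1 group, 18 enzymes were listed, 16 had a probe set and 12 were tested. None of the 12 passed at 24 h and none at 48 h with limma, while 2 had an unadjusted p under 0.05 at each time. Over all genes 1212 of 4368 had such a p at 24 h and 1002 at 48 h. Their differences lay between −0.16 and 0.35 at 24 h and between −0.12 and 0.38 at 48 h. The widest bounds of their 95% intervals were −0.51 and 0.69 at 24 h and −0.40 and 0.63 at 48 h. These bounds belong to HMGCS1 and NSDHL at 24 h and to HSD17B7 and ACAT2 at 48 h, and other intervals were narrower, such as that of LSS at 24 h (−0.15 to 0.36).

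The sterol sensors and SREBP genes gave no call among the 4 tested. INSIG1, which retains SCAP in the endoplasmic reticulum and is itself a target of the SREBPs, read 8.50, 8.36 and 9.15 in untreated cells, 8.94, 8.94 and 9.25 at 24 h, and 9.0, 8.59 and 9.18 at 48 h. It was higher than untreated in every run at both times, most in runs 1 and 2, and the groups overlapped because run 3 started high. The difference was 0.38 (interval 0.07 to 0.69, adjusted p = 0.115) at 24 h and 0.25 (−0.06 to 0.56) at 48 h. INSIG2, the second retention protein, read 3.97, 3.23 and 5.41 in untreated cells, 3.58, 3.14 and 4.18 at 24 h, and 4.24, 2.89 and 5.51 at 48 h. It passed the filter with 4 arrays at or above 4, the fewest of the 23, and run 3 was the highest at every time. It was lower in all 3 runs at 24 h, with a difference of −0.57 (interval −1.17 to 0.03, adjusted p = 0.198), and differed by 0.01 at 48 h. SREBF2, the SREBP that mainly drives sterol synthesis, differed by 0.13 and 0.11, and SCAP by 0.23 and 0.20. SREBF1, which mainly drives fatty acid synthesis, was under the filter at 2.25 to 3.36.

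Cholesterol transport held the largest change among the 23 genes. NPC1 (probe set 202679_at) encodes the lysosomal membrane protein that takes up cholesterol handed over by NPC2. It read 7.48, 6.87 and 7.98 in untreated cells, 6.14, 5.56 and 6.70 at 24 h, and 6.13, 4.94 and 6.12 at 48 h in runs 1, 2 and 3. Every treated array lay below every untreated array, and within each run the value at both later times was lower by more than 1 log2 unit. The fall within runs was −1.34, −1.31 and −1.28 at 24 h and −1.35, −1.93 and −1.86 at 48 h. NPC1 averaged 6.13 ± 0.57 at 24 h, against 7.44 ± 0.56 in untreated cells (SD, n = 3 each), a difference of −1.31 ± 0.146 (SE), or 2.48-fold lower, with an adjusted p of 0.000861. At 48 h it averaged 5.73 ± 0.68, a difference of −1.71 or 3.27-fold lower, with an adjusted p of 0.00024. NPC1 passed at both times whichever array or run was left out. Without the run as a block, where the spread between runs enters the error, the adjusted p was 0.132 at 24 h and 0.0488 at 48 h.

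NPC2, the soluble lysosomal protein that works with NPC1, averaged 9.25 ± 0.08 on the untreated arrays, 9.32 ± 0.07 on the 24 h arrays and 9.27 ± 0.07 on the 48 h arrays (SD, n = 3 each). Its difference lay between −0.16 and 0.31 at 24 h and between −0.21 and 0.26 at 48 h (95% intervals). The intervals of NPC1, from −1.65 to −0.97 and from −2.04 to −1.37, lie wholly below those of NPC2, although the difference between the genes was not itself tested.

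ABCA1 (probe set 203505_at) exports cholesterol and phospholipid to apolipoproteins. It read 7.27, 7.38 and 7.72 in untreated cells, 7.89, 7.91 and 7.90 at 24 h, and 7.96, 8.10 and 8.10 at 48 h. All 6 treated arrays lay above the 3 untreated ones, and the smallest gain was in run 3, which started highest. The 24 h difference was 0.44 (interval 0.16 to 0.72) and its adjusted p of 0.0523 missed the threshold. It passed when the untreated array of run 3 was left out (0.025), and under 4 of the other settings tried, with adjusted p between 0.0193 and 0.0483. The 48 h difference was 0.60 ± 0.121 (SE), or 1.51-fold higher, with an adjusted p of 0.0172. This call ended when any of 5 single arrays was left out, namely the untreated arrays of runs 1 and 2 (0.0935 and 0.0773) and the 48 h arrays of runs 1, 2 and 3 (0.0798, 0.0832 and 0.0639), or all of run 1 or run 2 (0.149 and 0.172). ABCG1, another exporter, was under the filter at 1.26 to 1.60, as was the LXR gene NR1H3 at 1.84 to 2.69.

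**Figure D2:**
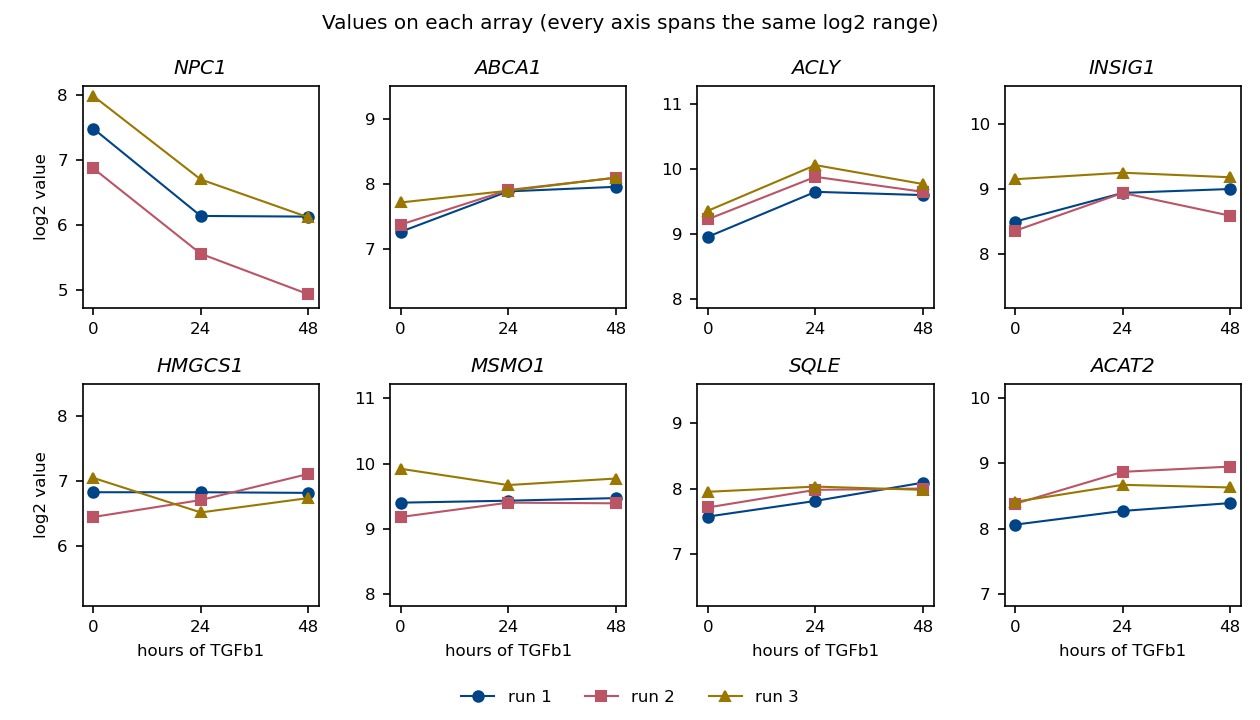
Log2 values of 8 genes on every array against hours of TGFβ1, with a line for each run. Every vertical axis spans the same log2 range, but levels are not comparable between genes. The 3 lines of NPC1 fall in parallel to 24 h, those of ABCA1 and ACLY lie higher at both later times, and those of HMGCS1 and MSMO1 cross or stay level.

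Among the 4 fatty acid synthesis genes, ACLY alone passed by its brightest probe set. ACLY (probe set 201128_s_at) read 8.96, 9.23 and 9.36 in untreated cells, 9.65, 9.88 and 10.06 at 24 h, and 9.60, 9.65 and 9.77 at 48 h. Every treated array lay above every untreated array, and the runs differed little in the size of the step at 24 h (0.69, 0.65 and 0.70). ACLY averaged 9.87 ± 0.21 at 24 h, against 9.18 ± 0.20 in untreated cells (SD, n = 3 each), a difference of 0.68 ± 0.106 (SE), or 1.61-fold higher, with an adjusted p of 0.00459. At 48 h the difference was 0.49, or 1.41-fold, with an adjusted p of 0.0221. Without the run as a block the adjusted p was 0.0373 at 24 h and 0.144 at 48 h. Leaving out run 2 or run 3 as a whole gave 0.0521 and 0.0528 at 24 h. At 48 h the call of this probe set ended without the untreated array of run 1 or 2 (0.116 and 0.0641). It also ended without the 48 h array of run 1, 2 or 3 (0.109, 0.0717 and 0.0711). Leaving out run 1, 2 or 3 as a whole ended it too (0.196, 0.143 and 0.082). The other sets of ACLY are given below.

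ACACA, the carboxylase that makes malonyl-CoA, read 5.49, 4.73 and 5.72 in untreated cells, 5.70, 5.36 and 5.71 at 24 h, and 5.76, 5.59 and 5.62 at 48 h. The low untreated array of run 2 gave that run the largest difference, and the groups overlapped. FASN, the fatty acid synthase, read 5.81, 6.08 and 5.74 in untreated cells, 6.09, 6.10 and 6.69 at 24 h, and 5.89, 6.20 and 6.30 at 48 h. Its 24 h values lay just above the untreated ones, with most of the gain in run 3, and the 48 h values overlapped with untreated. The FASN difference was 0.42 (interval 0.03 to 0.81, adjusted p = 0.155) at 24 h and 0.26 (−0.13 to 0.65) at 48 h. That of ACACA was 0.28 (−0.12 to 0.67) and 0.35 (−0.05 to 0.74).

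SCD, the desaturase that makes monounsaturated fatty acids, gave different answers by probe set. The brightest (200832_s_at) read 9.54, 9.63 and 10.31 in untreated cells, 9.40, 9.73 and 10.11 at 24 h, and 9.77, 9.87 and 10.19 at 48 h, with overlapping groups and differences of −0.08 and 0.12. A dimmer set (211708_s_at) read 4.43, 5.33 and 4.96 in untreated cells, 5.09, 5.85 and 5.96 at 24 h, and 5.20, 6.11 and 5.82 at 48 h. It was higher in every run, although the groups overlapped. When all 5918 probe sets that passed the filter were tested, it was higher by 0.72 at 24 h (adjusted p = 0.00818) and 0.80 at 48 h (0.00515). The set 211162_x_at was higher by 0.73 and 0.75 (0.0288 and 0.0273) and 200831_s_at by 0.56 at 48 h (0.0274). None of these passed without the run as a block (adjusted p 0.168 to 0.324), and the last 2 sets lost their calls without any 1 of 5 arrays. The set 211708_s_at kept both calls whichever single array was left out (adjusted p at most 0.0394 at 24 h and 0.0352 at 48 h). Probe sets with the suffixes s_at and x_at can share probes with related sequences. All 4 SCD sets, the brightest included, have such a suffix, as do the tested sets of ACLY, IDI1 and HSD17B7. The mean of the 4 SCD sets was 0.39 higher at 24 h (adjusted p = 0.0372), so the sign for SCD at 24 h depends on the probe set. At 48 h all 4 sets were positive, and their mean was 0.56 higher (adjusted p = 0.00883).

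Tested probe sets of the other genes shared a sign at 24 h. At 48 h the EBP set 213789_at differed by −0.06, against 0.24 for the brightest set of EBP. The SQLE sets 213562_s_at and 213577_at differed by 0.51 and 0.13 at 48 h, and both overlapped with untreated. The 30 genes had 57 probe sets, 38 of them passed the filter, and 9 genes had more than 1 that did. At 24 h 6 of the 38 were called, against 10.8% of the 5918 probe sets, with 5 that rose and 1 that fell against 5.66% and 5.14%. At 48 h 9 were called, against 9.38%, with 8 that rose and 1 that fell against 5.14% and 4.24%. All 3 sets of ACLY rose at both times, by 0.68 to 0.98 at 24 h and 0.49 to 0.85 at 48 h. In the fit over the 5918 sets, 201127_s_at passed at both times whichever single array was left out. Without the block its adjusted p was 0.00492 at 24 h and 0.00765 at 48 h. The set 210337_s_at lost its 48 h call only without the 48 h array of run 1 (0.0586). The second set of ABCA1 (203504_s_at) rose by 0.83 at 48 h (adjusted p = 0.00896; 0.0614 without the 48 h array of run 1). The 3 sets of INSIG1 were 0.37 to 0.70 higher at 24 h and none passed. NPC1 had 1 set above the filter, so its fall rests on that set.

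**Figure D3:**
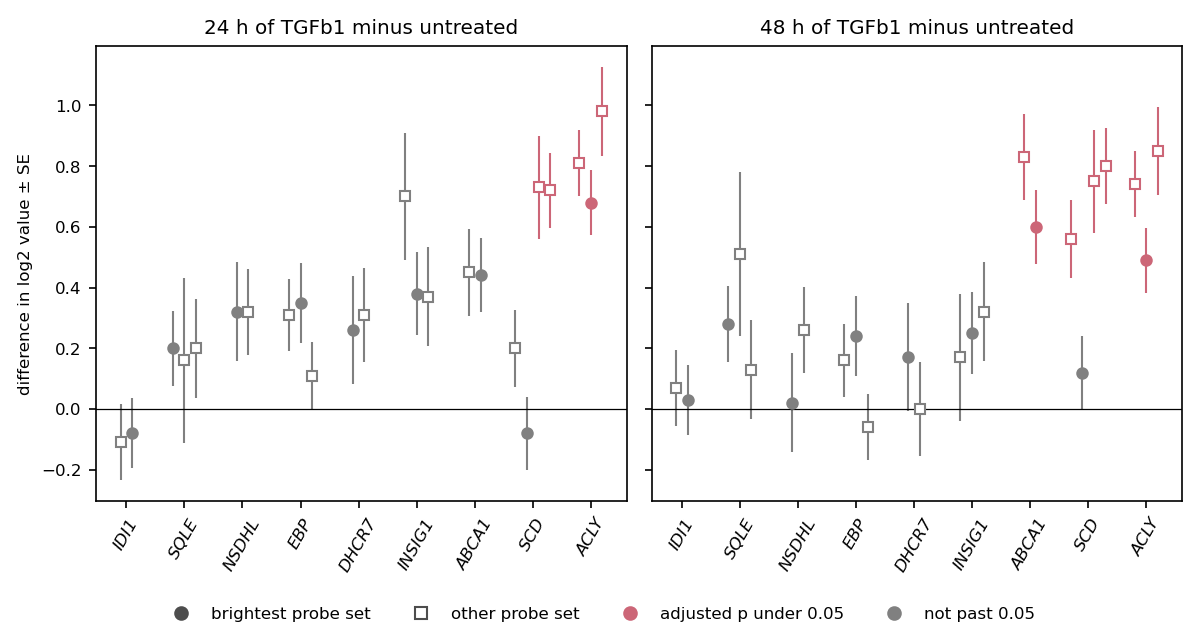
Difference in log2 value from untreated cells, with its SE, for every tested probe set of the 9 genes with more than 1, at 24 h (left) and 48 h (right) of TGFβ1. Circles are the brightest set of a gene, open squares its other sets, and red marks an adjusted p under 0.05 in the fit over 5918 probe sets. ACLY is red throughout, while the circle of SCD lies near 0 with red squares above it.

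At 48 h against 24 h, none of the 23 genes passed with limma, as none of the 4368 genes did (0%), while 709 of all genes and 1 of the 23 (NPC1) had an unadjusted p under 0.05. The NPC1 difference was −0.40 (interval −0.73 to −0.06, adjusted p = 0.262). ACLY differed by −0.19 (−0.43 to 0.05) and ABCA1 by 0.16 (−0.12 to 0.43). In the F test over the 3 times, NPC1, ACLY and ABCA1 passed (3 of 23), with adjusted p of 0.000467, 0.00988 and 0.0332, against 11.2% of all genes.

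Much of the variation in these genes was between runs. As a median over the 23 genes, 51.9% of the sum of squares lay between runs and 24.0% between the 3 times, against 38.6% and 29.2% over all genes tested. The run share was above the time share in 15 of the 23 (65.2%), against 57.4% of all genes. Run took 84.4% of the sum of squares in SCD, 84.2% in MSMO1, 80.6% in INSIG2 and 77.3% in IDI1. Time took 82.2% in ABCA1, 80.5% in ACLY and 68.6% in NPC1, the 3 genes called. These shares are descriptions and were not tested. They come from the same arrays as the calls, so a high time share in the called genes is no separate support.

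**Figure D4:**
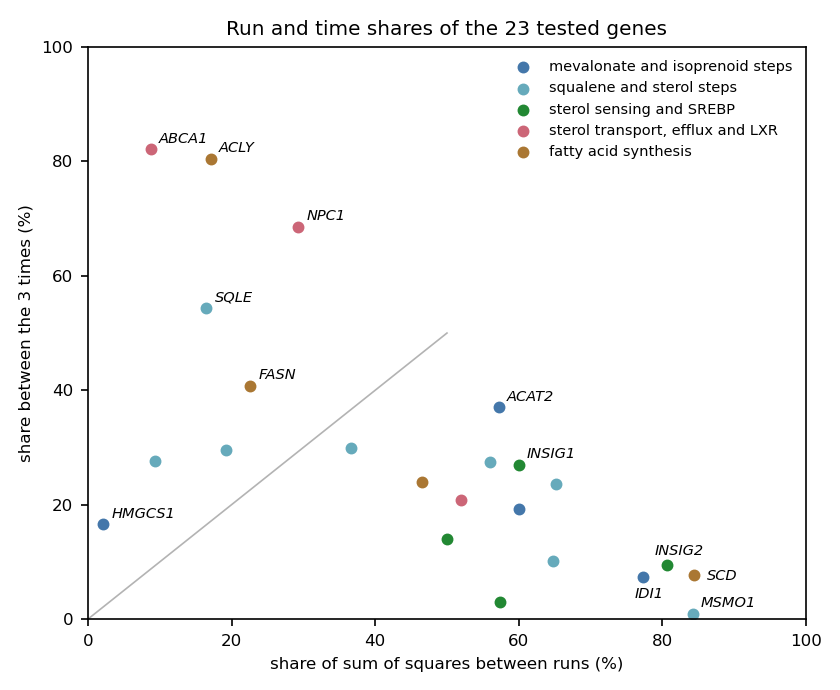
Share of each tested gene's sum of squares between the 3 times (vertical, %) against its share between runs (horizontal, %), coloured by role. The grey line marks equal shares. ABCA1, ACLY and NPC1 sit at the top, while SCD, MSMO1, INSIG2 and IDI1 sit at the lower right, above 77% between runs.

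Further genes of the same pathways were read from 4 lists. Of 13 genes of side branches and esterification, 9 had a probe set and 6 were tested. GGPS1, which makes geranylgeranyl diphosphate, fell at 24 h by 0.42 on the log2 scale (adjusted p = 0.0473), and none of the 6 passed at 48 h. That call ended without the run as a block (0.47) and when any 1 of the 9 arrays was left out (0.0508 to 0.168). The mean of GGPS1's probe sets differed by −0.21 (adjusted p = 0.349), so the fall depends on the probe set. The call also ended with no filter on low values (0.0788), with each array centred on its median (0.0559) and with every probe set tested (0.051). Of 12 genes of SREBP processing and sterol-regulated degradation, 8 were tested and none passed at either time. The smallest p at 24 h in that list belonged to VCP, an ATPase that extracts proteins from the endoplasmic reticulum (0.34, adjusted p = 0.124), and UFD1, its cofactor (0.18, adjusted p = 0.341). At 48 h they belonged to MARCHF6, a ubiquitin ligase for squalene epoxidase (0.25, adjusted p = 0.496), and ERLIN1, a sterol-binding membrane protein (−0.17, adjusted p = 0.518).

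Of 23 further genes of fatty acid synthesis, elongation and desaturation, with activating enzymes and regulators among them, 16 had a probe set and 12 were tested. At 24 h 3 of the 12 fell and none rose, against 5.52% lower and 5.95% higher over all genes, and at 48 h 1 fell, against 4.81%. The gene called at 48 h, also 1 of the 3 at 24 h, passed the filter through its untreated arrays alone and so had to differ. That gene, ACSL1, an acyl-CoA synthetase that activates long fatty acids, averaged 3.51 ± 0.03 at 24 h and 2.99 ± 0.39 at 48 h, against 5.35 ± 0.18 in untreated cells (SD, n = 3 each). Its 6 treated arrays lay at 2.72 to 3.53, against 5.25 to 5.56 on the 3 untreated ones. Values this low may lie at background, so the fitted differences of −1.85 (adjusted p = 0.000231) and −2.37 (adjusted p = 5.60e-05) give no exact size. ELOVL6, the elongase that acts on the product of FASN, differed by −0.97 at 24 h (adjusted p = 0.00855) and −0.49 at 48 h (adjusted p = 0.131). Its 24 h call ended without the block (0.0602) and without run 1 (0.0597). ACSL4, an acyl-CoA synthetase for polyunsaturated fatty acids, differed by −0.63 at 24 h (adjusted p = 0.0236; 0.33 without the block, and 0.0616 to 0.115 without any 1 of 4 arrays of runs 2 and 3). Of 16 genes of sterol uptake, transport and LXR partners, 8 were tested and none passed. In that list LIPA, the lysosomal lipase that frees cholesterol from esters, differed by 0.27 and 0.35 (adjusted p = 0.176 and 0.11), RXRA, the LXR partner, by −0.24 at 24 h, and OSBPL8, a lipid transfer protein, by 0.42 at 48 h.

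Marker genes of the labelled cell type and treatment were also read. Their lists were chosen with earlier results of these data known, so the counts are no independent check of the labels. Of 9 proximal tubule markers with a probe set only PAX8 was tested, and it fell by 0.60 at 24 h and 0.81 at 48 h, while the others were near background in every group. The summed log2 value of 8 simple epithelium markers was 46.0 to 48.2 at 24 h and 46.3 to 47.5 at 48 h, against 50.7 to 52.3 in untreated cells, and CDH1 was at background (1.28 ± 0.14 in untreated cells). Its members went opposite ways: of the 6 tested, KRT8 was called higher at 24 h (0.65, adjusted p = 0.0123, and 0.46 with 0.0546 at 48 h), while EPCAM, CLDN1 and ELF3 were called lower at both times, ELF3 having passed the filter through its untreated arrays alone. These 4 were named after their values were seen. Of the 9 early TGFβ targets with a probe set 8 were tested, and 8 rose at 24 h and 7 at 48 h, against 5.95% and 5.22% of all genes called higher. PMEPA1 is among them and passed the filter through its 6 treated arrays alone, with its untreated arrays at 2.17 to 2.58. It therefore had to differ. The 9 fibroblast markers summed to 30.1 to 31.3 in untreated cells, 30.9 to 33.2 at 24 h and 31.3 to 33 at 48 h. Of the 2 tested, VIM was called higher at both times. Near background the markers went opposite ways at 24 h and 48 h, such as COL1A1 (1.35 and 1.11) and COL3A1 (−0.30 and −0.24). The sum is thus not a shared rise, and COL1A1 and COL3A1 were named after their values were seen. No endothelial or leukocyte marker exceeded 2.46 on any array. These markers moved at the same times as NPC1, ACLY and ABCA1, and their part in those results was not tested. On bulk arrays, fewer cells of a kind and less RNA per cell cannot be told apart.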

How the data were processed

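RNA of 9 pools of HK-2 cells was hybridised to 1-colour Affymetrix arrays. The deposited values are 1 log2 value per probe set, made by the authors with GCRMA per the submitters' processing notes; no version is stated in those notes. GCRMA corrects the background by probe sequence, normalizes between arrays and summarises probe sets, and folds near background have no exact size. The deposited values were not normalized again. Array medians were 2.2 to 2.23 and the highest value was 12.52, within a log2 scanner range. No detection calls were used, so low values cannot be told from background, and precision is limited by how few arrays there are.

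Of 22277 probe sets, 62 were controls. By the platform annotation 19064 had 1 symbol, 1043 several and 2108 none, and 19052 matched a gene ID in the RefSeq table. Genes were read by the brightest of their probe sets with 1 symbol. The 33 genes and the pathway and marker lists were chosen with earlier results of these data known. Named genes were all 33, plus from each pathway list the genes past the threshold (at most 4 a comparison) or, with none, the 2 of smallest p, and at most 3 defining genes of a marker list. The simple epithelium list was an exception, with more than 3 genes named.

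The test was limma 3.58.1 (R 4.3.3) in 1 fit over the 9 arrays with the run as a block, and the code was tested on simulated data. The replicate numbers pair the arrays: residuals about the group means had correlations of 0.378 to 0.662 for arrays that share a number and −0.526 to 0.185 for other pairs, with 9 of 9 arrays closest to their own number. The median SE was 0.139 with the block and 0.191 without it. Intervals are unadjusted 95% intervals of that fit. Alternatives were the fit without the block, other filters, probe set choices, scalings and priors, and each array or run left out.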

Additional observations from a re-analysis of the deposited data

How the results depend on the processing

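Without the run as a block, 1 of the 23 genes (ACLY) passed at 24 h against 2 with it, 0 passed the F test against 3, and 210, 194 and 180 of all 4368 genes passed at 24 h, at 48 h and in the F test, against 501, 438 and 491 with it. The block changed no other count of the 23 by over 1.5 times. With an intensity trend and robust prior, 6 of the 23 passed at 24 h (ABCA1, ACAT2, ACLY, EBP, INSIG1 and NPC1) and 666 of all genes did. The median at 24 h was 0.12 with no filter on low values, which adds the 7 genes near background. With the mean of a gene's probe sets, the median at 48 h against 24 h was 0.04 against −0.02, and SCD at 24 h was 0.39 higher (adjusted p = 0.0372) against −0.08 by its brightest set. Over the 12 fits that left out 1 array or 1 run, 1 to 3 of the 23 passed at 24 h, at 48 h and in the F test, and none passed at 48 h against 24 h. NPC1 was the gene that passed in every such fit at both times. The medians were 0.09 to 0.23 at 24 h, 0.05 to 0.21 at 48 h and −0.05 to 0.06 at 48 h against 24 h. With 3 runs of 1 line and values from a background-corrected summary, small changes and the 7 dim genes are beyond these arrays.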
